A study of Mus musculus with 6 samples.

Results

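The genes described here serve antigen presentation by MHC class I: the heavy chains H2-K1 and H2-D1, their light chain B2m, the peptide transporter Tap1 and Tap2, tapasin (Tapbp), the immunoproteasome subunits Psmb8, Psmb9 and Psmb10, and the regulator Nlrc5. They were taken from the authors' deposited gene table by the symbol column, which gave 12 of 22274 rows. Of these, 10 carry the Ensembl identifier of the named gene, 1 for each gene, and their values are used below. The other 2 rows carry identifiers that GENCODE assigns to different heavy chain genes. One is listed as H2-D1 but is H2-Q1, with 4, 1 and 1 counts under control siRNA and 1, 2 and 0 under Prune2 siRNA. The other is listed as H2-K1 but is H2-M2, with 0 counts in all 6 libraries. Neither enters the values of H2-K1 or H2-D1.

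The RNA came from mouse kidney cells that the labels call primary renal fibroblasts, of wild-type genotype. A scrambled control siRNA was used for 3 libraries and an siRNA against Prune2 for the other 3. TGF-β at 5 ng/ml for 48 h was given to both groups, so no library here shows the cells without it. Strain, age and the number of animals are not in the labels, nor is it said whether the replicates were separate cultures, so p-values measure only library-to-library spread, which may be technical in origin.

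Class I molecules show peptides from a cell's own proteins to CD8 T cells, and nearly every nucleated cell carries them. The proteasome cuts the peptides, the TAP transporter moves them into the endoplasmic reticulum, and tapasin helps to load them onto a heavy chain paired with B2m. Interferons raise most of these genes, and they also bring in the immunoproteasome subunits, which replace the constitutive catalytic subunits. Nlrc5 is a transactivator of class I genes, as Ciita is of class II genes. Kidney tubular cells carry more class I when the kidney is inflamed.

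Library totals ran from 20075265 to 23234797 counts, and Prune2 itself was lower in the libraries given its siRNA (log2 fold change -0.87 ± 0.15 SE, adjusted p = 0.000214). In FPKM the difference was smaller, with a log2 fold change of -0.48 in the authors' deposited table. Of the fibroblast markers, Vim (570 ± 31.2 CPM, counts scaled to the TMM-adjusted library size; SD, n = 3) and Col1a1 (236 ± 3.42 CPM) were high in the control libraries. Thy1 was at 0.594 ± 0.216 CPM there, and Dcn, Lum and Fap had too few counts to be tested. The epithelial genes Krt8 (2420.3 ± 52.6 CPM) and Epcam (428 ± 4.72 CPM) were abundant in the same libraries, so the label and the markers go together only in part. All 18 leukocyte markers on the list fell with Prune2 siRNA, and their summed level was 209 to 267 CPM in the control libraries and 46.9 to 50.02 CPM in the Prune2 siRNA libraries. The 4 with the smallest adjusted p were Mpeg1, Ctss, Laptm5 and Lyz2 (log2 fold changes of -2.53, -2.84, -2.74 and -2.53), and none of the 18 was at 0 in all libraries. The summed fibroblast markers went from 929 to 969 CPM down to 705 to 750 CPM (4 of 9 tested fell, Vim, Col1a1, Postn and Col1a2, and 0 rose), and the endothelial markers from 142 to 152 CPM down to 106 to 109 CPM (6 of 10 fell, led by Cdh5, Emcn, Eng and Pecam1, and 0 rose). The tubular markers were at 4442 to 4593 CPM and 4069 to 4464 CPM, with 2 of 9 tested higher (Slc12a3 and Cdh16) and 3 lower (Lrp2, Aqp1 and Krt8), and Slc34a1 and Aqp2 were at 0 throughout. The T, NK and B cell markers, of which 6 of 10 were at 0 in every library, summed to at most 0.348 CPM. In such bulk RNA, fewer cells of a type and less RNA per cell cannot be told apart. The part of these shifts in the class I results was not tested.

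With Prune2 siRNA, 6 of the 10 class I genes rose (H2-K1, H2-D1, B2m, Tap1, Tapbp and Nlrc5), 0 fell and 4 did not pass the test (Tap2, Psmb8, Psmb9 and Psmb10). All 10 had enough counts to be tested, and 7 had an unadjusted p under 0.05, all of them higher. The test was edgeR's quasi-likelihood test on the counts, with Benjamini-Hochberg adjustment over 13248 genes and a threshold of 0.05. In that comparison 10.3% of all tested genes were called, 4.46% as higher and 5.83% as lower. In CPM the 3 Prune2 siRNA libraries all lay above the 3 control libraries for 7 of the 10 genes, the 6 that rose and Tap2. Of all tested genes, 11.9% separated in that direction. In FPKM the Tap1 libraries overlapped between the groups. The median log2 fold change of the 10 genes was 0.21, against 0.00 over all tested genes. The 10 genes were chosen with earlier results of these data known. Their excess over the shares of all tested genes is therefore not independent evidence. Apart from Nlrc5, the changes were small, with fold changes of 1.15 to 1.31 among the other 5 that rose.

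**Figure D1:**
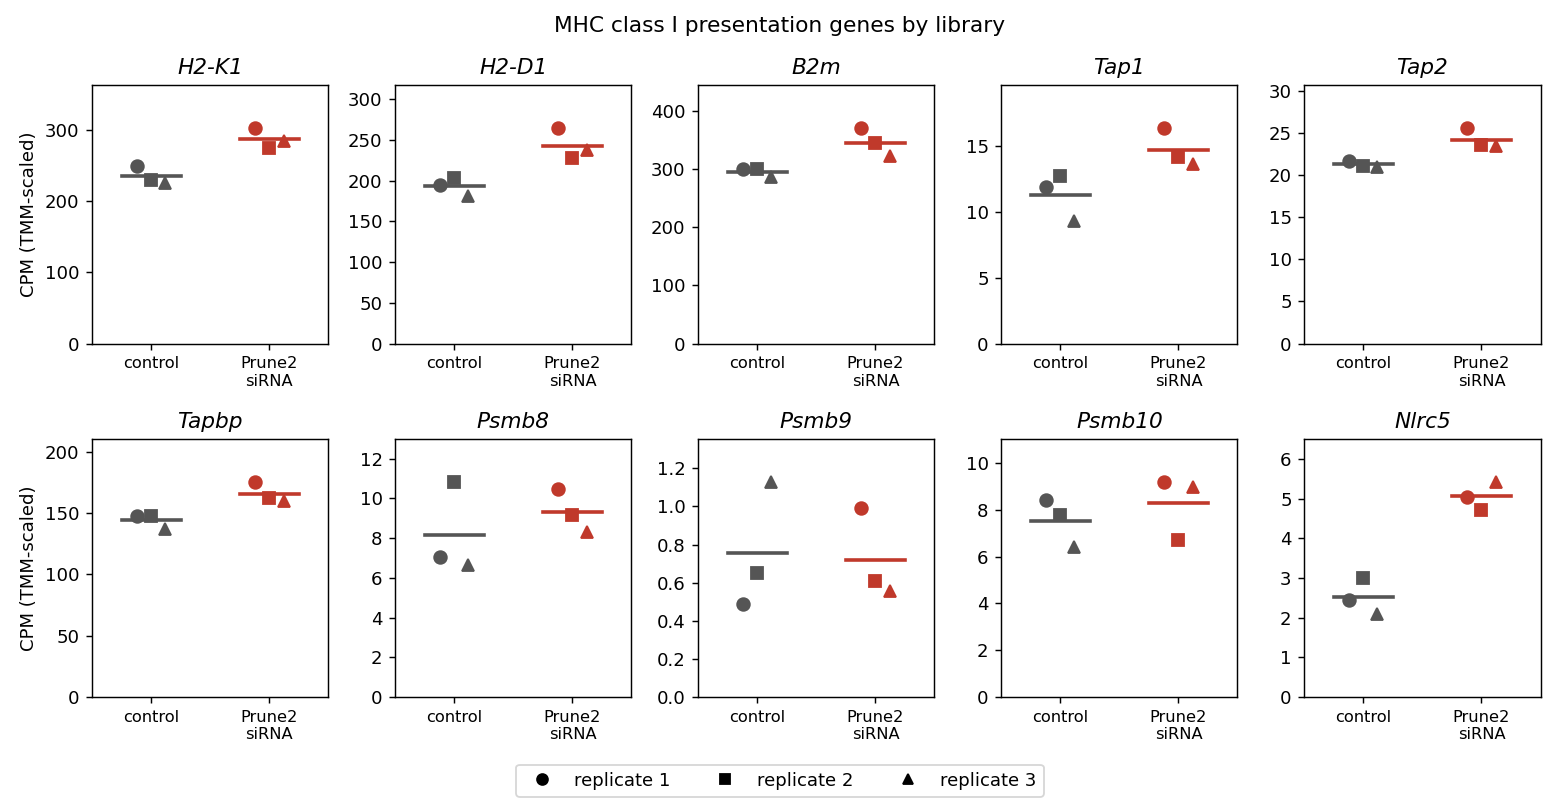
Level of each class I gene in each library, in CPM on axes that start at 0; symbols are libraries, shaped by replicate, and horizontal lines are the means of 3 libraries per group. For 7 genes every Prune2 siRNA library lies above every control library, while the points of Psmb8, Psmb9 and Psmb10 overlap between groups.

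H2-K1 and H2-D1 encode the classical heavy chains, which hold the peptide at the cell surface, and B2m is the small invariant chain that every one of them needs to fold. On GRCm38, H2-K1 lies at chr17:33996017-34000347 on the minus strand, H2-D1 at chr17:35262730-35267499 on the plus strand, and B2m at chr2:122147686-122153083 on the plus strand. H2-K1 and H2-D1 lie in the mouse MHC, while B2m lies outside it and within the span of Patl2 on the other strand. Sequences upstream of the RefSeq starts of these 3 genes are shown because all 3 rose. The H2-D1 stretch is upstream only of the RefSeq start: all 30 of its bases lie within the first GENCODE exon of H2-D1, in the 5′ UTR, because GENCODE starts that gene farther upstream. They come from the RefSeq promoter table for GRCm38.p6, are read along the strand of the gene, and carry in capitals the match to AANNGAAA, an interferon response element core, on either strand. That motif was chosen after the sequences had been seen.
H2-K1, chr17:34000348-34000453, minus strand, from -120 to -15: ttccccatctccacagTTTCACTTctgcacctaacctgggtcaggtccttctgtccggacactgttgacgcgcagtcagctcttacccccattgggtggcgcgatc
H2-D1, chr17:35262933-35262962, plus strand, from -161 to -132: catctcctcagTTTCACTTctgcacctaac
B2m, chr2:122147527-122147685, plus strand, from -160 to -2: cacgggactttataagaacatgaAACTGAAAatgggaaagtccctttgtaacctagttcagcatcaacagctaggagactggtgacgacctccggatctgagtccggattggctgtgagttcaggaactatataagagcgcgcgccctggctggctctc

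Positions count from the RefSeq start of transcription, for H2-K1 the downstream one of 2 that RefSeq gives. The upstream sequences of H2-K1 and H2-D1 were near copies of each other, with 172 identical bases in 192 aligned columns (89.6%) and an unbroken identical run of 47. The AANNGAAA match lay at -104 to -97 in H2-K1 and at -150 to -143 in H2-D1, with the same 8 letters, TTTCACTT, on the strand of the gene. In B2m it lay at -137 to -130 as AACTGAAA. The table holds 8 of the 10 genes, Tap2 and Nlrc5 not among them. In the 250 bases before the start, AANNGAAA occurred in 3 of those 8 (the 3 shown) and in 21.3% of all 32851 promoters, searched on both strands. The longer interferon element, a pair of GAAA blocks with 2 bases between them, holds AANNGAAA within it and occurred in 1 (B2m) and in 2.98% of all promoters. TTCNNNGAA, the STAT dimer site, occurred in 1 (Psmb8, at -97 to -89) and in 7.02% of all. CCAAT occurred in 6 and in 33.85% of all. The match counted for Psmb9 (at -8 to -4) and that for Tap1 (at -222 to -218) are the same bases. Such matches describe these letters only.

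H2-K1 was at 249, 229 and 225 CPM with control siRNA and at 302, 275 and 284 CPM with Prune2 siRNA. The lowest Prune2 siRNA library stood above the highest control library. H2-K1 rose 1.22-fold, from 234 ± 12.9 to 287 ± 14.02 CPM (SD, n = 3 each; log2 fold change 0.29 ± 0.04 SE, edgeR adjusted p = 1.77e-05). H2-D1 was at 195, 204 and 181 CPM with control siRNA and at 265, 227 and 238 CPM with Prune2 siRNA, again without overlap. It rose 1.26-fold, from 193 ± 11.3 to 243 ± 19.3 CPM (log2 fold change 0.33 ± 0.05 SE, edgeR adjusted p = 1.85e-05). The log2 fold changes of the heavy chains differ by less than either standard error.

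B2m was at 301, 299 and 286 CPM with control siRNA and at 370, 344 and 321 CPM with Prune2 siRNA. The groups did not overlap, and Prune2 siRNA replicate 1 was the highest. B2m rose 1.17-fold (log2 fold change 0.23 ± 0.04 SE, edgeR adjusted p = 0.000512). The heavy chains did not separate from it: the log2 count ratio to B2m was higher by 0.07 for H2-K1 (exact two-sided permutation p = 0.3) and by 0.11 for H2-D1 (exact permutation p = 0.2), and libraries overlapped in both. Ratios of this kind were taken for 4 gene pairs after the values had been seen, each adjusted p was 0.3, and 3 against 3 libraries cannot give an exact p below 0.1.

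Heavy chain genes resemble one another, and reads can fall to the wrong one. Of the 50-base windows in the longest H2-K1 transcript, 8.79% also occur in transcripts of other genes, and of those in H2-D1 14.3%. With windows of 100 bases the shares were 0% and 4.64%, and for B2m and Nlrc5 both were 0%. The fold changes of H2-K1 and H2-D1 therefore carry some uncertainty from shared sequence, more so for H2-D1. Their alleles also differ between mouse strains, and the strain is not in the labels.

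Tap1 and Tap2 together form the peptide transporter, and tapasin bridges it to the empty heavy chain. All 3 genes lie in the MHC on the plus strand, at chr17:34187553-34197225 for Tap1, chr17:34203527-34216321 for Tap2 and chr17:33915899-33929292 for Tapbp. Tap1 was at 11.9, 12.7 and 9.30 CPM with control siRNA and at 16.4, 14.2 and 13.7 CPM with Prune2 siRNA. In CPM no control library reached the lowest Prune2 siRNA library, though control replicate 3 stood well below the other 2. In FPKM the groups overlapped, with 4.01, 4.80 and 3.47 under control siRNA and 5.56, 4.79 and 4.79 under Prune2 siRNA. Tap1 rose 1.31-fold (log2 fold change 0.39 ± 0.11 SE, edgeR adjusted p = 0.0166). That call rested on single libraries: without control replicate 3 the log2 fold change was 0.26 with an adjusted p of 0.141, and without Prune2 siRNA replicate 1 it was 0.31 with 0.108. DESeq2 gave an adjusted p of 0.0557, and 3 limma fits on the log2 of FPKM gave 0.246 to 0.351.

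Tap2 was at 21.7, 21.1 and 20.99 CPM with control siRNA and at 25.6, 23.6 and 23.5 CPM with Prune2 siRNA. The groups did not overlap, and the spread among controls was small (SD 0.374 CPM), yet the difference did not pass the test (log2 fold change 0.19 ± 0.07 SE, edgeR adjusted p = 0.0911). The log2 count ratio of Tap1 to Tap2 was higher by 0.20 with Prune2 siRNA, with overlapping libraries (exact two-sided permutation p = 0.3), and ran from 0.079 to 0.30 with 1 library left out.

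Tapbp was at 148, 148 and 137 CPM with control siRNA and at 176, 162 and 160 CPM with Prune2 siRNA. The groups stood apart. Tapbp rose 1.15-fold (log2 fold change 0.20 ± 0.04 SE, edgeR adjusted p = 0.00171), the smallest change among the 6 genes that rose. Of its 50-base windows 21.025% also occur in other transcripts, mainly those of Gm19412.

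The immunoproteasome subunits replace the constitutive catalytic subunits when interferon is present, Psmb8 in place of Psmb5, Psmb9 of Psmb6 and Psmb10 of Psmb7. Psmb8 and Psmb9 lie in the MHC beside the transporter genes, at chr17:34197721-34201454 and chr17:34181987-34187764, and Psmb10 lies at chr8:105935735-105938444. Psmb9 and Tap1 start head to head, with 225 bases between their RefSeq first bases, and they share an upstream stretch. The 30 bases next to the RefSeq start of Psmb9 are shown because the pair is read out from one stretch in opposite directions. All 30 lie within GENCODE exons, so they are upstream only of the RefSeq start. CCAAT, as it reads on the other strand, is in capitals.
Psmb9, chr17:34187331-34187360, minus strand, from -30 to -1: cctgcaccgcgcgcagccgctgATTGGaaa

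The pair differed widely in level. Psmb9 had 10, 13 and 26 counts in the control libraries and 21, 14 and 13 counts with Prune2 siRNA. These groups overlapped fully, with control replicate 3 the highest of all. The log2 fold change was -0.10 ± 0.38 SE (edgeR adjusted p = 0.927), so a change of the size seen in Tap1 was not detectable at this depth. In GENCODE, whose transcripts start farther upstream, Tap1 and Psmb9 overlap at their 5′ ends on opposite strands: 12.5% of the 50-base windows of Psmb9 occur in Tap1 transcripts, and whether counting used the strand is not given in the sources used here.

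Psmb8 was at 7.03, 10.8 and 6.65 CPM with control siRNA and at 10.5, 9.16 and 8.33 CPM with Prune2 siRNA. Control replicate 2 was the highest of the 6 libraries, and the groups overlapped. The log2 fold change was 0.19 ± 0.14 SE (edgeR adjusted p = 0.517). That value moved with single libraries: without control replicate 2 it was 0.44 with an adjusted p of 0.0406, and without control replicate 3 it was 0.057 with an adjusted p of 0.907. It was 0.099 without control replicate 1 and 0.10 without Prune2 siRNA replicate 1. Psmb10 was at 8.40, 7.80 and 6.43 CPM with control siRNA and at 9.20, 6.72 and 8.97 CPM with Prune2 siRNA, also overlapping (log2 fold change 0.14 ± 0.13 SE, edgeR adjusted p = 0.633). With 1 library left out it ran from 0.030 without control replicate 3 to 0.27 without Prune2 siRNA replicate 2.

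Set against its constitutive counterpart, each immunosubunit was the minor form, as judged by the authors' FPKM, which correct for transcript length. Psmb8 stood at 10.9 ± 3.53% of Psmb5 in the control libraries and at 11.2 ± 1.04% with Prune2 siRNA (SD, n = 3 each). Psmb9 stood at 0.995 ± 0.516% of Psmb6 and then at 0.938 ± 0.273%. Psmb10 stood at 10.6 ± 1.62% of Psmb7 and then at 10.7 ± 1.91%. In log2 count ratios the differences were 0.08, 0.04 and 0.01, with overlapping libraries in all 3 pairs (exact two-sided permutation p = 0.8, 0.9 and 0.9, adjusted p = 0.9 for each over the 3 pairs). The constitutive genes themselves did not pass the test either, with log2 fold changes of 0.13 for Psmb5, -0.07 for Psmb6 and 0.12 for Psmb7. Many windows of Psmb5 (57.1%) and Psmb7 (28.1%) of 50 bases occur in other transcripts, so these ratios are approximate.

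Nlrc5, at chr8:94434356-94527272 on the plus strand, encodes the transactivator of class I genes and changed most among the 10. With control siRNA it had 50, 60 and 48 counts, and with Prune2 siRNA 107, 108 and 127. The lowest Prune2 siRNA library had well over the count of any control library, and the levels were 2.44, 3.00 and 2.09 CPM against 5.05, 4.71 and 5.42 CPM. Nlrc5 rose 2.03-fold (log2 fold change 1.02 ± 0.18 SE, edgeR adjusted p = 0.000181), and only 0.491% of tested genes had a higher log2 fold change. Its log2 count ratio to H2-K1 was higher by 0.73, and every Prune2 siRNA library lay above every control library (exact two-sided permutation p = 0.1, the smallest that 3 against 3 can give).

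The size of the Nlrc5 change differed by unit. In FPKM it was at 0.37, 0.44 and 0.27 in the control libraries and at 0.88, 0.86 and 1.35 with Prune2 siRNA, a 2.86-fold ratio of means, and the authors' deposited table lists a log2 fold change of 1.52. The transcript length implied by counts and FPKM together was 7023 ± 613 bases with control siRNA and 5091 ± 914 bases with Prune2 siRNA (SD, n = 3 each). That length enters FPKM and not the counts, and a change in it moves the fold change in FPKM. The direction was the same in both units.

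**Figure D2:**
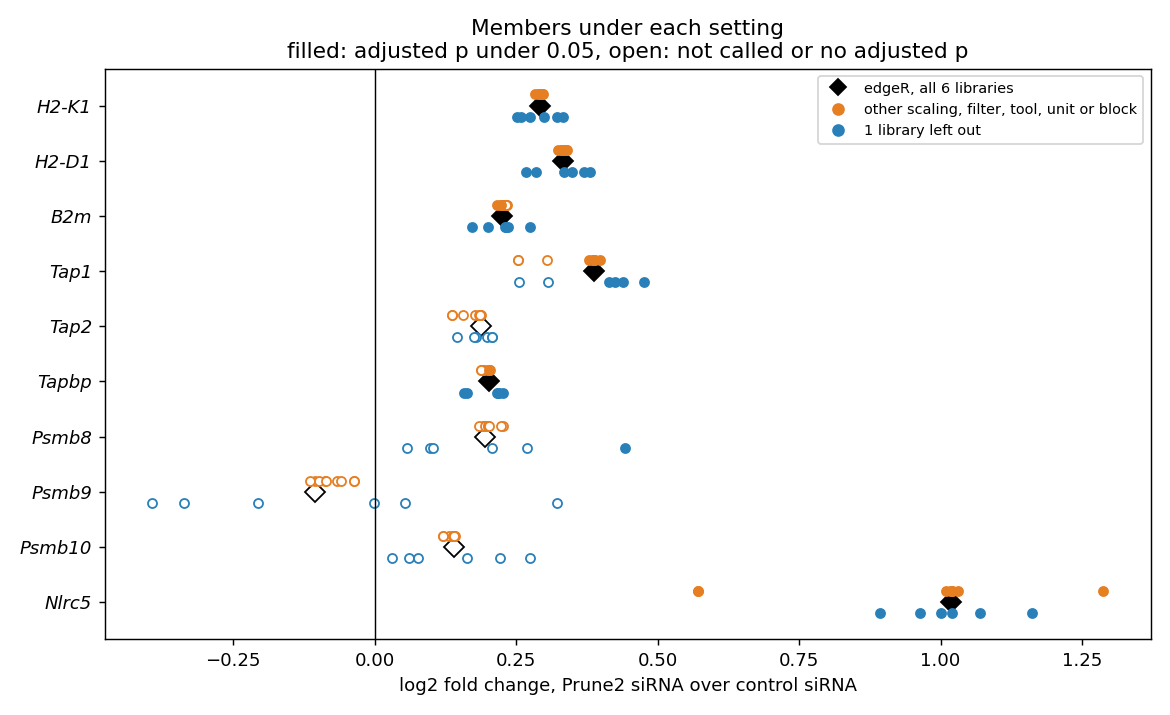
Log2 fold change of each class I gene under the edgeR fit of all 6 libraries (diamonds), under other scalings, filters, tools or units (orange) and with 1 library left out (blue); filled symbols passed an adjusted p of 0.05. H2-K1, H2-D1 and Nlrc5 are filled under all 15 alternatives, Tap1 under 9, and Psmb9 lies on both sides of 0.

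Between genes, the FPKM show how unequal the parts of the pathway were. Averaged over the 6 libraries, B2m was the most abundant at 372 FPKM, followed by H2-K1 at 165, H2-D1 at 107 and Tapbp at 58.3. Each of these 4 stood above the next in both groups without overlap. Psmb8 (8.54 FPKM), Tap2 (6.69), Psmb10 (6.04) and Tap1 (4.57) came next, and within this set neighbours overlapped in at least one group. Nlrc5 (0.695 FPKM) and Psmb9 (0.562) were the lowest, and their ranges overlapped in the control libraries only. The order of these genes turned between the groups: Psmb9 (0.587 FPKM) was above Nlrc5 (0.36) in the control means and below it (0.537 against 1.03) in the Prune2 siRNA means. The constitutive subunits Psmb5 (77.3 FPKM), Psmb6 (58.2) and Psmb7 (56.9) were of the order of Tapbp.

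**Figure D3:**
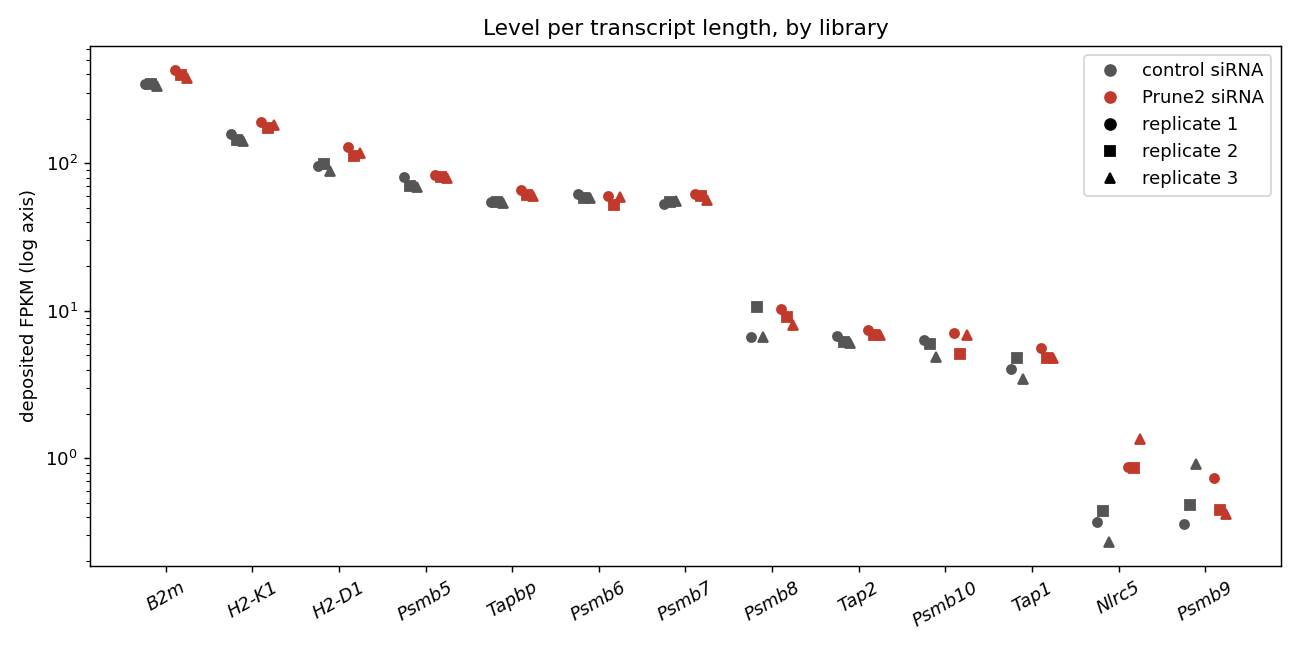
The authors' FPKM of the 10 class I genes and the 3 constitutive proteasome subunits in each library, on a log axis. B2m and the heavy chains lie above 80 FPKM in every library, while Nlrc5 and Psmb9 lie below 1.4.

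Other heavy chain genes changed in part. Of 24 listed, 22 were in the table and 15 could be tested. Of these 15, 3 rose, 0 fell and 12 did not pass the test, with a median log2 fold change of 0.00. Over all tested genes 4.46% were called higher. The list mixes H2 genes with the class I-like genes Mr1, Cd1d1, Cd1d2, Fcgrt and Hfe. These had log2 fold changes of -0.15, -0.11, -0.13, -0.09 and -0.11. All 8 positive values were of H2 genes, while H2-T24 (-0.01) and H2-Bl (-0.09) were below 0. The median therefore does not describe the H2 genes alone. H2-Q4 was at 18.7, 17.6 and 19.0 CPM with control siRNA and at 29.4, 26.6 and 25.9 CPM with Prune2 siRNA, without overlap (log2 fold change 0.56 ± 0.07 SE, edgeR adjusted p = 2.66e-06). H2-Q6 rose from 1.502 ± 0.187 to 3.06 ± 0.282 CPM (log2 fold change 1.02 ± 0.22 SE, edgeR adjusted p = 0.00193). H2-T22, a nonclassical chain, rose from 12.4 ± 1.67 to 16.7 ± 0.369 CPM (0.43 ± 0.09 SE, edgeR adjusted p = 0.002). H2-Q7, a close copy of H2-Q6, had a log2 fold change of 0.79 ± 0.26 SE and missed the threshold (adjusted p = 0.0518). H2-T23, which presents leader peptides of other class I chains, had 0.00 ± 0.12 SE. Shared sequence was not measured for the genes of the Q and T regions. How reads split between close copies such as H2-Q6 and H2-Q7 is therefore uncertain.

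The general chaperones and peptidases of the pathway mostly did not pass the test. Of 16 genes for loading and trimming, 1 rose, 1 fell and 14 were not called, with a median log2 fold change of -0.02. Over all tested genes 4.46% were called higher and 5.83% lower, so 1 gene of 16 in each direction is about the share of all genes. Erap1, the aminopeptidase that trims peptides in the endoplasmic reticulum, rose from 84.8 ± 2.06 to 95.3 ± 6.07 CPM (0.17 ± 0.05 SE, edgeR adjusted p = 0.0187). Hspa5, the general chaperone BiP, fell from 888 ± 58.5 to 805 ± 29.4 CPM (-0.14 ± 0.04 SE, edgeR adjusted p = 0.028), with control replicate 3 inside the Prune2 siRNA range. Calr, which holds the new heavy chain, had -0.10 ± 0.03 SE (adjusted p = 0.0569), and Tapbpl, the tapasin relative, had 0.00 ± 0.07 SE.

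Among 9 tested genes of proteasome activation and assembly, 1 rose and 0 fell. Over all tested genes 4.46% were called higher, and 1 gene of 9 is too few to set against that share. Psme2, a subunit of the interferon-inducible activator cap, was at 42.3, 37.0 and 33.1 CPM with control siRNA and at 48.2, 45.5 and 44.2 CPM with Prune2 siRNA. The groups did not overlap (log2 fold change 0.30 ± 0.07 SE, edgeR adjusted p = 0.004). Its partner Psme1 had 0.13 ± 0.05 SE and did not pass (adjusted p = 0.152). None of the 3 constitutive catalytic subunits and none of the 11 other proteasome core subunits was called in the edgeR fit, and 2 and 1 of them had an unadjusted p under 0.05, all higher.

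Among 19 regulators of class I genes, 3 rose, 1 fell and 15 were not called, where 4.46% of all tested genes were called higher and 5.83% lower. Irf9 and Stat2, which take part in the answer to type I interferon, had log2 fold changes of 0.98 ± 0.09 SE and 0.75 ± 0.08 SE. Irf9 was at 17.9, 23.8 and 16.9 CPM with control siRNA and at 40.3, 39.0 and 35.7 CPM with Prune2 siRNA, without overlap (edgeR adjusted p = 1.03e-08). Stat3 rose by a log2 fold change of 0.13. Irf1, an activator of Tap1 and Psmb9, had 0.10 ± 0.06 SE and overlapping groups (adjusted p = 0.384). Irf8, which leukocytes express, fell by 1.88 on the log2 scale, beside the lower leukocyte markers given above.

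Of 12 interferon receptor and restraint genes, Usp18 (log2 fold change 1.56) and Ifngr1 (0.22) rose, Jak2 (-0.16) and Ptpn6 (-0.32) fell, and 8 were not called. The shares of all tested genes were 4.46% higher and 5.83% lower. The 10 interferon ligand genes on the list were at 0 counts in all libraries for 8 of them. Ifnb1 had 1 count and Ifne 2 counts, both in Prune2 siRNA replicate 3, and 0 counts in a library allows up to 0.129 to 0.149 CPM. On a list of 32 interferon-stimulated genes, 29 were tested and 28 of those rose, with a median log2 fold change of 1.12 and Ifi27 (1.25), Ifit3 (1.39), Rtp4 (2.68) and Bst2 (1.12) of smallest adjusted p, whereas the median of the 10 class I genes was 0.21. The gene lists and the 10 class I genes were chosen with earlier results of these data known. Their direction is therefore not independent evidence.

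Class II genes moved the other way from class I genes. All 7 tested of 11 fell, with a median log2 fold change of -2.45. Ciita, the class II transactivator, had 68, 47 and 47 counts in the control libraries and 5, 4 and 7 with Prune2 siRNA (log2 fold change -3.40 ± 0.36 SE, edgeR adjusted p = 1.41e-07), while its class I counterpart Nlrc5 rose. Cd74, the invariant chain, had -2.95 ± 0.09 SE and the class II chains H2-Aa, H2-Ab1 and H2-Eb1 had -2.98 ± 0.20, -1.75 ± 0.13 and -2.45 ± 0.23 SE. Of 10 receptors that read class I on NK, T or myeloid cells, 2 had enough counts to be tested and 1, Pirb, fell (-3.29 ± 0.63 SE). The leukocyte markers had a median log2 fold change of -2.64 in the same libraries, and their part in the class II values was not tested.

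**Figure D4:**
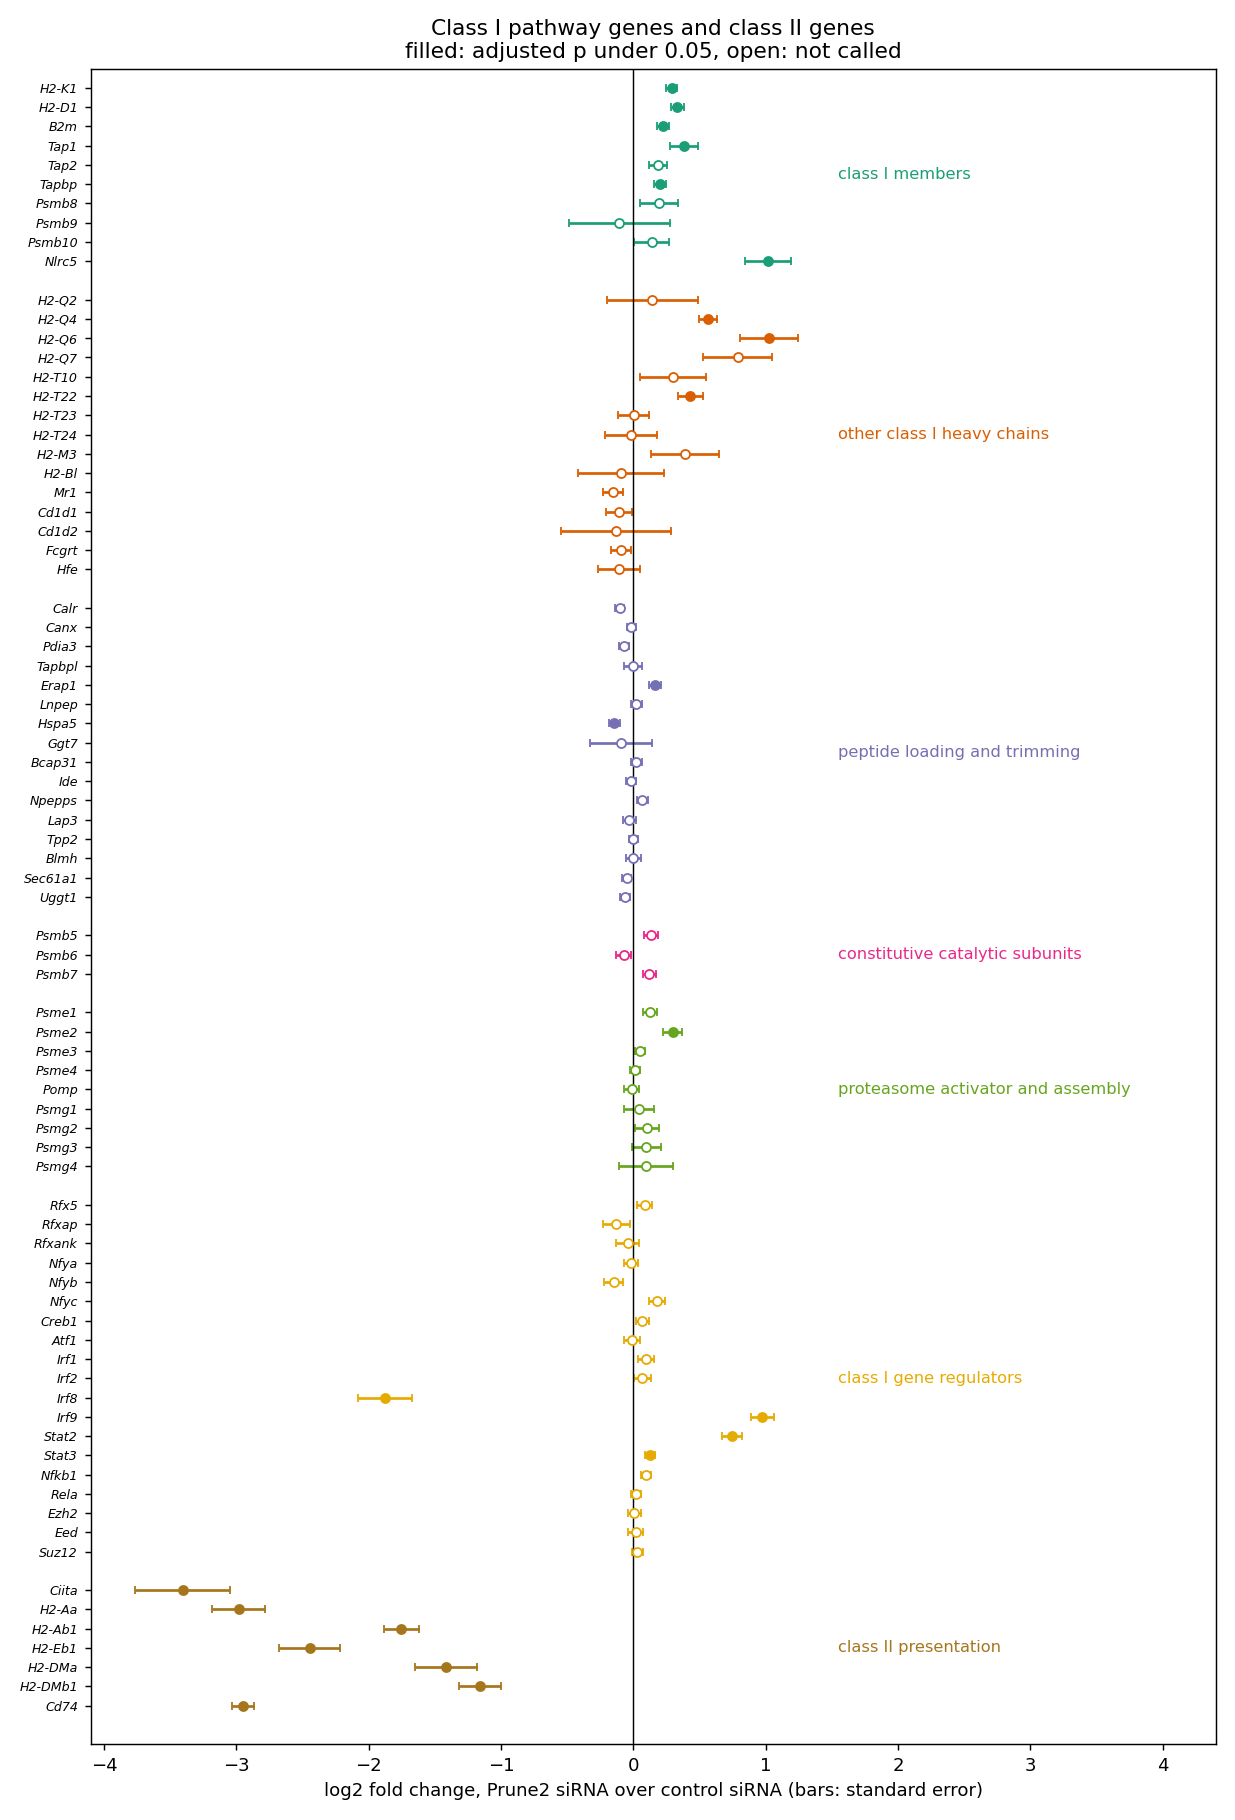
Log2 fold change with Prune2 siRNA and its standard error for the class I genes, the other genes of the pathway by list, and class II genes; filled symbols passed an adjusted p of 0.05. The class I genes lie between -0.10 and 1.02, and the class II genes between -3.40 and -1.16.

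Within the groups the class I genes varied together. Prune2 siRNA replicate 1 was the highest of its group for 9 of the 10 genes, the exception being Nlrc5, whereas 33.9% of all tested genes were highest there. It was also the highest of its group for Psmb5, Psmb6 and Psmb7 (74.7, 47.4 and 71.4 CPM). The same held for most of the other proteasome core subunits, though not Psmb4, and for most tested interferon-stimulated genes. This order was therefore not particular to the class I genes. Control replicate 3 was the lowest of its group for 9 of the 10, the exception being Psmb9, whereas 35.2% of all tested genes were lowest there. Of the constitutive subunits, Psmb5 was also lowest there, and Psmb6 and Psmb7 were not. Most of the other proteasome core subunits were not lowest there either. Most tested interferon-stimulated genes and most leukocyte markers were, the latter with a sum of 209 CPM against 255 and 267 CPM in control replicates 1 and 2. The low position of control replicate 3 was therefore not particular to the class I genes. With either of these libraries left out, H2-K1, H2-D1, B2m, Tapbp and Nlrc5 still passed the test and Tap1 did not.

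**Figure D5:**
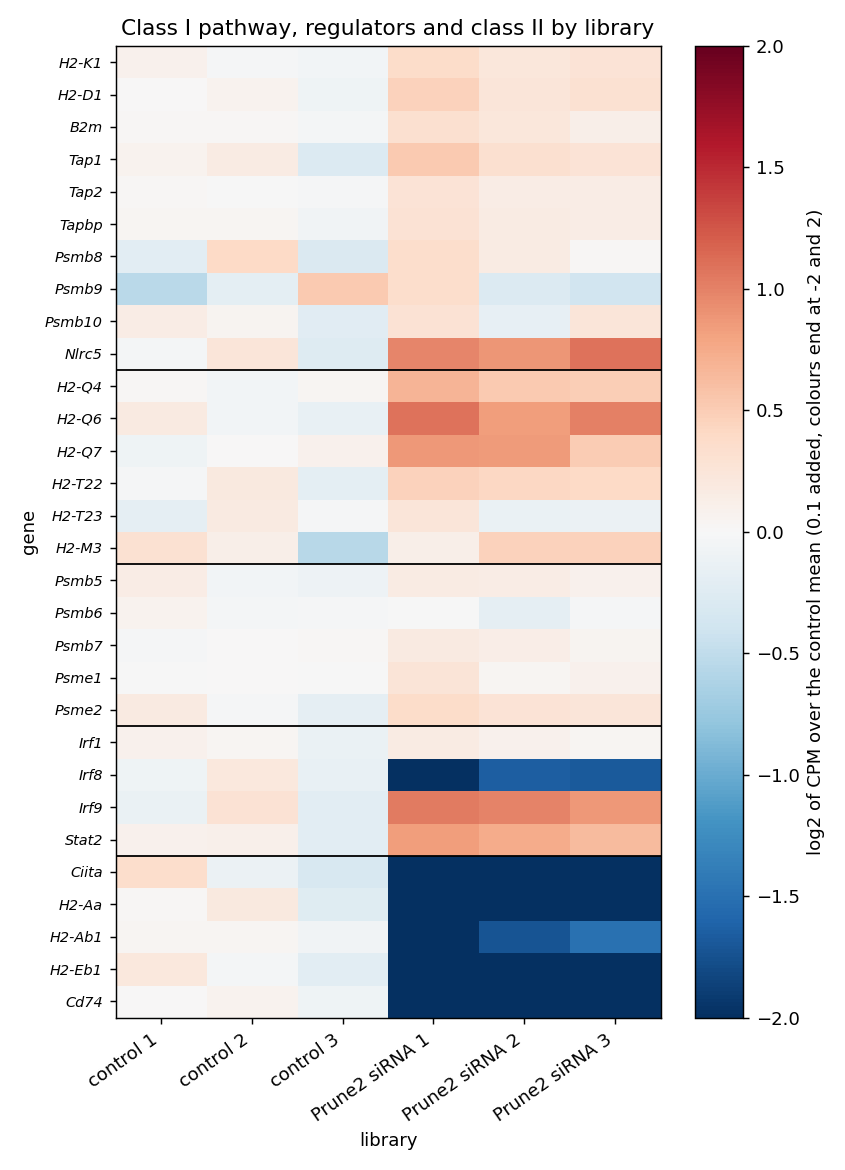
Log2 ratio of each gene in each library to the mean of the 3 control libraries, for the class I genes, other heavy chains, proteasome subunits, regulators and class II genes. Colours end at -2 and 2, with red above and blue below the control mean; 7 of the 10 class I genes are redder in every Prune2 siRNA library than in any control library, and Ciita, H2-Aa, H2-Eb1 and Cd74 are at the blue end in all 3.

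The genes outside the list whose levels over the 6 libraries most resembled the mean standardised profile of the 10 class I genes were Fdft1 (Pearson r = 0.995), Isoc1 (0.993), Kank2 (0.986), Necap2 (0.986) and 1110008P14Rik (0.983), among 12372 genes compared. These are the extremes of many correlations over 6 libraries that also share their groups, and they are given as a description. Fdft1, squalene synthase, rose (log2 fold change 0.30) and so did Isoc1 (0.24), and the other 3 were not called.

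In the authors' deposited table, 5 of the 10 class I genes had an adjusted p under 0.05, against 4.64% of the 22274 genes in it. That share counts every row, also the 5246 genes with 0 counts in all libraries. It is therefore not on the same footing as the shares of 13248 tested genes given above. They were H2-K1 (adjusted p = 2.29e-08 in the authors' deposited table), H2-D1, B2m, Nlrc5 and Tapbp. Tap1 was at 0.0629 and Tap2 at 0.340 in the authors' deposited table, and the 3 immunosubunits were at 0.876 or above there.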

How the data were processed

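RNA-seq libraries of 3 control and 3 Prune2 siRNA samples were grouped by their titles. The authors deposited 1 table with raw counts and FPKM per gene and, for their own comparison, log2 fold changes and p-values. The genome build was GRCm38 (mm10), per the submitters' processing notes, while for the counting tool and its use of strand the sources used here give nothing. The 6 libraries held 20075265 to 23234797 counts. Symbols came from GENCODE M21 by Ensembl identifier (22219 of 22274 matched). Counts were filtered (filterByExpr), scaled by TMM (factors 0.994 to 1.008) and tested with edgeR 4.0.16 (glmQLFit, glmQLFTest, R 4.3.3) at an adjusted p of 0.05; the script was tested on simulated data. Values in CPM use the TMM-scaled library sizes. Ratios of genes were compared by exact permutation over libraries. Alternatives were DESeq2 1.42.0, limma 3.58.1 (also on log2(FPKM + 1) and log2(FPKM + 0.1)), other scalings, no filter, a replicate block and each library left out. Chi-square between replicate libraries was 2.57 to 3.92 for each degree of freedom, and none was counted as a repeat. The members and gene lists were chosen with earlier results of these data known. All 10 members are named, and of the other lists the called genes with the smallest adjusted p up to 4 per direction, with a set of pathway genes named whatever their value. Protein sequences were not used here, and 1 gene of the regulator list is not reported here.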

Additional observations from a re-analysis of the deposited data

How the results depend on the processing

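H2-K1, H2-D1 and Nlrc5 passed the test under all 15 alternatives, B2m and Tapbp under 14, Tap1 under 9, Psmb8 under 1, and Tap2, Psmb9 and Psmb10 under 0. The count of class I genes called higher was 3 under limma on log2(FPKM + 1) with no filter, where B2m (adjusted p 0.0706), Tap1 (0.351) and Tapbp (0.0577) were lost, and 5 to 7 with 1 library left out, with 0 lower in each. Over all genes, limma on log2(FPKM + 1) called 326 higher and 426 lower, on log2(FPKM + 0.1) 326 and 430, and without a filter 221 and 372; leaving out 1 library gave 401 to 551 higher and 596 to 708 lower. For the FPKM fits the cause was not tested. The Nlrc5 log2 fold change ran from 0.57 on log2(FPKM + 1) to 1.29 on log2(FPKM + 0.1). With 1 library left out, Psmb9 ran from -0.39 to 0.32, Psmb8 from 0.057 to 0.44 and Psmb10 from 0.030 to 0.27, and the log2 ratio differences ran from -0.083 to 0.33 for Psmb8 to Psmb5, -0.26 to 0.39 for Psmb9 to Psmb6 and -0.11 to 0.17 for Psmb10 to Psmb7. Among the ratios added after seeing the values they ran from 0.025 to 0.099 for H2-K1 to B2m, 0.072 to 0.15 for H2-D1 to B2m, 0.079 to 0.30 for Tap1 to Tap2 and 0.64 to 0.89 for Nlrc5 to H2-K1. Replicate numbers did not pair the libraries (correlations of deviations 0.15, -0.01 and 0.05 over 9063 genes, and not every library correlated best with its own number); with the replicate block 6 class I genes were higher and 0 lower, and 664 genes were higher and 826 lower in all. Counts of 10 to 26 limit Psmb9.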
